A study of Mus musculus with 9 samples.

Results

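The 10 genes described here encode the NF-kB transcription factor subunits (Nfkb1, Nfkb2, Rel, Rela and Relb), their IkB-family partners (Nfkbia, Nfkbib, Nfkbie and Bcl3) and the feedback inhibitor Tnfaip3. They were chosen by symbol, and all 10 were found among the 32285 mouse genes of the count tables. Transcripts were counted by their molecular barcodes (unique molecular identifiers, UMIs, 1 per captured RNA) in droplet-based single-cell RNA-seq of 5 tumor and 4 control brain samples. Each sample is called a mouse here, although the labels do not say that each came from its own animal and the study's text counts fewer mice than tumor samples. Tumors came from EPZFTA-RELA mice of genotype NestinCreERT2;Fus1, a genetic ependymoma model whose ZFTA-RELA fusion is switched on by Cre, under the Nestin promoter, in radial glia before birth. Control brains came from mice of genotype NestinCreERT2;TdT, so both groups carried the Cre allele. All mice were 6 to 8 weeks old, were labelled brain, and were dissociated, spun through Percoll and sorted on DAPI and Ter119 before capture. For each mouse the counts of all kept cells were added up, as were those of each cell class gated on marker genes, to compare the myeloid, endothelial and neural progenitor sources of these transcripts. A level below is the UMI count of a gene scaled to the total UMIs of its sum, in the usual CPM unit, and a fold change comes from the edgeR fit to the sums.

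NF-kB is a family of dimeric transcription factors held in the cytoplasm by inhibitors of the IkB family. Receptors for TNF, IL-1 and microbial products act through the IKK kinases, which mark these inhibitors for degradation and let the dimers enter the nucleus. Nfkbia and Tnfaip3 are themselves transcribed in response to NF-kB and end the signal, and in the brain the pathway is best known from microglia, macrophages and endothelium. The fusion of this model joins ZFTA to RELA, the subunit that carries a strong transactivation domain.

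The upstream sequences of the genes are shown because several of them hold the binding motif of the factor that their products form or restrain. RefSeq promoter windows (GRCm38.p6) were available for 8 of the 10 genes in 11 windows, with none for Nfkb1 and Relb, and the 250 bases before each start were searched on both strands for the 10-base kB consensus, counting overlapping matches separately. The motif was found in 7 of the 11 windows and in 5 genes, Nfkb2, Rel, Nfkbia, Nfkbie and Tnfaip3, beside 7.25% of all 32841 windows and 8.24% of 27018 gene symbols. The letters were not found in the windows of Rela, Nfkbib and Bcl3. A match is a stretch of letters and not a measured binding site. In the following lines, each written 5′ to 3′ on the strand of the gene with the match in capitals, the Nfkbia and Tnfaip3 sequences belong to the feedback inhibitors described at most length, and the others are the nearest matching windows of Rel, Nfkb2 and Nfkbie.
Nfkbia, chr12:55492648-55492706 (minus strand): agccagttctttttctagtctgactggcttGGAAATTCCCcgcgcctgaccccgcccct
Tnfaip3, chr10:19015411-19015565 (minus strand): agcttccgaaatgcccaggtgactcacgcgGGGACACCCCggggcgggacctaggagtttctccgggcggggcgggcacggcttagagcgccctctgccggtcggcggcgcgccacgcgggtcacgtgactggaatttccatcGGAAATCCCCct
Rel, chr11:23771021-23771091 (minus strand): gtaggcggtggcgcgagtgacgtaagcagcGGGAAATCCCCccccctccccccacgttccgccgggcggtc
Nfkb2, chr19:46304668-46304736 (plus strand): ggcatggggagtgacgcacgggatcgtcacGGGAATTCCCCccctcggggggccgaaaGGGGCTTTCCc
Nfkbie, chr17:45555564-45555633 (plus strand): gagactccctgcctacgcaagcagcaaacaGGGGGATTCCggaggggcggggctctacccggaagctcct

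The libraries left 19583 control cells (3982 to 5927 per mouse) and 15732 tumor cells (1577 to 5101). Kept cells held 12957493 to 21506502 UMIs per control and 5903072 to 37523700 per tumor. Whole libraries differed more, with 75222 to 86516 barcodes and 101060608 to 178086164 UMIs per control. Tumor libraries had 9001 to 26341 barcodes and 14967680 to 69411387 UMIs. Kept cells were thus a smaller part of every control library than of any tumor library. The part of this difference in the results between tumors and controls was not tested. Held-out markers ran at least 2-fold above other cells for 8 of 8 genes in myeloid-like and 6 of 6 in endothelial-like cells of both groups. Neural-progenitor-like cells join the progenitor and cycling gates. Against all other cells of tumors the cycling gate passed for 6 of 6 held-out markers, but the progenitor gate for only 2 of 6, with a median of 1.39-fold. Against immune, vascular, oligodendrocyte-like, choroid-like and neuron-like gates, leaving out the related astrocyte-like, OPC-like (oligodendrocyte precursor) and ependymal-like ones, both together passed for 9 of 12, with Hmga2 lowest at 0.198-fold. In controls the progenitor gate passed for 0 of 6 markers, and that class of controls is not compared. The neuron-like gate held 71.6% of control cells on average, but there only 1 of its 6 held-out markers was 2-fold above other cells. The fusion sequence had no UMI in the control cells. It had 180, 585 and 245 UMIs in neural-progenitor-like cells of tumors 2, 4 and 5, but 0 in tumor 1 and 5 in tumor 3, so the tests were repeated with tumors 2, 4 and 5 only. RNA outside cells (free RNA) was estimated in barcodes with few UMIs, the lowest 3000 per library, with medians of 559 to 1338 UMIs. Tumor 3 had only 9001 barcodes, so there they were also candidates for cells. In tumor 4 they held Nfkb1 at 74.4 CPM, against 45.1 CPM in the whole library. Whether they held cells was not tested, and free RNA values of tumors are read with this limit. Neuron markers put the share of free RNA in myeloid-like sums at 54.9% to 62.5% of UMIs in controls and 11.96% to 28.3% in tumors. In endothelial-like sums it was 34.7% to 50.7% and 14.5% to 23.1%. Among the kept cells of a library at most 38 had a barcode that also occurred in another library, with control 4 left out because its barcode list is shorter than its matrix.

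Over all kept cells, the largest differences between tumors and controls lay among the IkB-family and feedback genes. Nfkbia, which encodes the inhibitor IkB-alpha, rose 15.9-fold, Bcl3, a nuclear member of the family, 14.5-fold, and Nfkbie, which encodes IkB-epsilon, 13.6-fold. Tnfaip3, which encodes a ubiquitin-editing enzyme that ends the signal, rose 7.09-fold. Of the 10 genes 8 were higher in tumors, Nfkb2 was lower, and Rel did not pass the test, beside 32.3% of 17582 tested genes called higher and 29.5% called lower. The count of 8 stands against this background of many calls in both directions. The median log2 difference was 1.58 over the 10 genes and 0.04 over all genes. With tumors 2, 4 and 5 only, 8 genes were again higher and Nfkb2 lower, beside 6498 of 17790 tested genes called higher and 6703 lower. The log2 differences were then 4.14 for Nfkbia, 4.14 for Nfkbie, 4.01 for Bcl3, 2.48 for Tnfaip3 and -1.76 for Nfkb2. A sum over all cells mixes cell types, so fewer cells of a type and less RNA per cell cannot be told apart in it. Control levels were also near those of free RNA. Barcodes with few UMIs in controls held Nfkbia at 14.3 to 21.8 CPM, beside 12.7 to 16.2 CPM in kept cells. For Bcl3 these ranges were 0 to 0.631 and 0.339 to 0.572 CPM, and for Nfkbie 0.259 to 0.946 and 0.617 to 0.776 CPM. For Tnfaip3 they were 0.954 to 2.85 and 1.23 to 2.71 CPM. The part of free RNA in these folds was not tested.

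Nfkbia, at chr12:55489410-55492647 (minus strand, ENSMUSG00000021025), was counted at 15.6, 16.2, 12.9 and 12.7 CPM in controls 1 to 4 and at 144, 234, 228, 139 and 206 CPM in tumors 1 to 5. The group means were 14.4 ± 1.82 CPM (SD, n = 4) and 190 ± 45.7 CPM (SD, n = 5), and edgeR gave a log2 difference of 3.99 (SE 0.27, adjusted p = 5.98e-05). Every tumor lay above every control, and the lowest tumor was tumor 4. Nfkbib, at chr7:28758251-28767512 (minus strand, ENSMUSG00000030595), encodes another inhibitor, IkB-beta. Its levels were 16.4, 17.1, 15.6 and 15.8 CPM in controls and 15.2, 26.7, 19.5, 33.2 and 26.7 CPM in tumors, so that tumor 1 lay below all controls. The log2 difference was 0.89 (SE 0.30, adjusted p = 0.0271). It missed the threshold of 0.05 when any 1 control or tumor 2 was left out, with adjusted p between 0.0566 and 0.0688. The call also ended with library totals in place of TMM scaling (0.58, adjusted p = 0.0503) and with the replicate number as a block (0.72, adjusted p = 0.0996). Barcodes with few UMIs held Nfkbib at 24.8 to 31.9 CPM in controls, above the kept cells, and at 12.5 to 22.0 CPM in tumors. Over whole libraries, all barcodes included, it was at 23.9 to 26.4 CPM in controls and overlapped with tumors at 13.1 to 31.8 CPM. The part of free RNA in its difference was not tested. Nfkbib overlaps Sirt2 on the other strand by 778 bases, and whether reads of Sirt2 were counted for it was not tested. Across 64 sums of class and mouse the levels of both correlated at r = 0.53, a description over sums that share libraries.

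Nfkbie, at chr17:45555703-45563169 (plus strand, ENSMUSG00000023947), encodes IkB-epsilon, an inhibitor of dimers with Rel or Rela. It was near its floor in controls, at 0.617, 0.744, 0.699 and 0.776 CPM, and was counted at 1.36, 13.9, 8.60, 5.78 and 9.43 CPM in tumors. The groups did not overlap, although tumor 1 came close to the controls, and the log2 difference was 3.77 (SE 0.64, adjusted p = 0.00100). Bcl3, at chr7:19808462-19822770 (minus strand, ENSMUSG00000053175), encodes a nuclear IkB-like protein that acts with p50 and p52 homodimers on DNA. It was counted at 0.386, 0.511, 0.572 and 0.339 CPM in controls and at 2.20, 8.25, 8.46, 6.08 and 2.25 CPM in tumors, a log2 difference of 3.86 (SE 0.58, adjusted p = 0.000565). Antisense transcripts Gm16174 and Gm16175 overlap Bcl3. Tnfaip3, at chr10:19000910-19015657 (minus strand, ENSMUSG00000019850), was counted at 1.23, 2.46, 1.84 and 2.71 CPM in controls and 3.90, 9.50, 34.4, 8.45 and 8.68 CPM in tumors. Tumor 3 was more than 3 times as high as the next tumor, while the lowest tumor still lay above every control. The log2 difference was 2.83 (SE 0.58, adjusted p = 0.00264), and without tumor 3 it was 2.25 and still called.

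Among the subunits, Relb and Rela had the largest rises. Rela, at chr19:5637483-5648130 (plus strand, ENSMUSG00000024927), encodes the p65 subunit of the canonical dimer. It was counted at 17.8, 17.3, 15.5 and 15.4 CPM in controls and at 33.0, 29.1, 44.0, 27.0 and 25.1 CPM in tumors, a log2 difference of 1.17 (SE 0.16, adjusted p = 0.000403). The groups did not overlap, and whether reads of the fusion's RELA part were counted for mouse Rela was not tested. Relb, at chr7:19606217-19629438 (minus strand, ENSMUSG00000002983), encodes the subunit of the non-canonical dimer. Its levels were 3.32, 3.63, 3.24 and 3.54 CPM in controls and 9.83, 15.3, 14.7, 6.45 and 11.2 CPM in tumors, a log2 difference of 1.99 (SE 0.29, adjusted p = 0.000502), and the lowest tumor again exceeded the highest control.

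Nfkb1, at chr3:135584655-135691547 (minus strand, ENSMUSG00000028163), encodes the p105 precursor that is cut to the p50 subunit. It rose from 25.2, 25.1, 28.2 and 27.2 CPM in controls to 39.1, 44.2, 59.6, 40.3 and 33.7 CPM in tumors, a log2 difference of 0.96 (SE 0.18, adjusted p = 0.00166), without overlap. Rel, at chr11:23736847-23770970 (minus strand, ENSMUSG00000020275), encodes c-Rel, a subunit best known from immune cells. Controls held 13.5, 12.3, 10.8 and 11.3 CPM and tumors 15.2, 17.3, 37.3, 10.4 and 9.93 CPM. Tumors 4 and 5 were thus below all controls, tumor 3 was far above the rest, and the log2 difference of 0.78 (SE 0.33, adjusted p = 0.0625) was not called. Without tumor 1, 4 or 5 it passed, with adjusted p of 0.0459, 0.0405 and 0.0320, and so it did with a mitochondrial limit of 10% (adjusted p = 0.0278). Without tumor 3 the log2 difference was 0.46 (adjusted p = 0.116), and with tumors 2, 4 and 5 only it was 0.47 (adjusted p = 0.103), so that its size rested on tumor 3.

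Nfkb2, at chr19:46304320-46312385 (plus strand, ENSMUSG00000025225), encodes the p100 precursor of p52, the partner of Relb in the non-canonical dimer. It went the other way, from 55.8, 60.8, 62.3 and 65.0 CPM in controls to 12.2, 18.6, 18.1, 10.8 and 11.4 CPM in tumors. Every tumor lay far below every control, and edgeR gave a 3.58-fold lower level (log2 difference -1.84, SE 0.22, adjusted p = 0.000246). In controls its mean level was 60.5 CPM in astrocyte-like, 61.1 CPM in oligodendrocyte-like and 63.0 CPM in neuron-like cells, but 31.0 CPM in myeloid-like and 42.5 CPM in endothelial-like cells. Barcodes with few UMIs held it at 60.9 to 83.0 CPM in controls and at 8.92 to 33.8 CPM in tumors. The locus overlaps Psd, a gene on the other strand, by 299 bases, and the levels of both correlated at r = 0.60 over the 64 sums. The part of Psd reads and of free RNA in the fall of Nfkb2 was not tested.

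**Figure D1:**
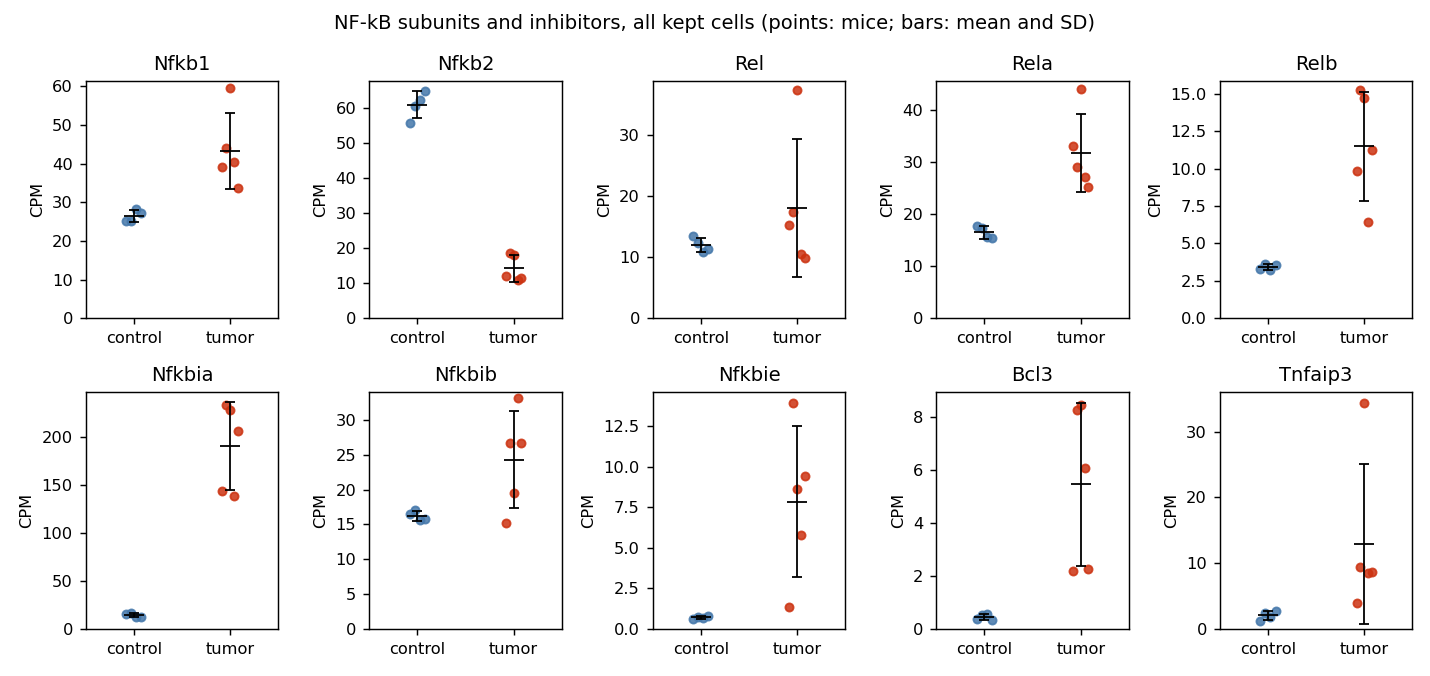
CPM of each of the 10 genes (y axis, 1 panel per gene, each with its own scale) in the 4 control and 5 tumor mice over all kept cells; points are mice and bars give mean ± SD. Tumors lie above controls without overlap for Nfkb1, Rela, Relb, Nfkbia, Nfkbie, Bcl3 and Tnfaip3, below them for Nfkb2, and overlap with them for Rel and Nfkbib. The share of all genes without overlap was not counted.

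Among other genes of the pathway, receptors and targets were mostly higher over all kept cells, and kinases, adaptors and further inhibitors went both ways. All 9 receptor genes tested were higher in tumors, with a median log2 difference of 2.97, and among them the TNF receptor Tnfrsf1a rose by 4.09 (SE 0.33, adjusted p = 7.59e-05). Of 15 tested target genes 13 were higher and none was lower, with the chemokine gene Ccl2 at a log2 difference of 7.84 (SE 0.55, adjusted p = 5.98e-05). These shares of 100% and 86.7% stand beside 32.3% of all genes. The 17 genes of IKK kinases, adaptors and upstream enzymes were divided, 7 higher, 2 lower and 8 not called, with Traf2, Myd88 and Birc3 higher and the kinase genes Chuk and Map3k7 lower. Of 9 other inhibitors and feedback genes 4 were higher, Zc3h12a, Nfkbiz and Otulin among them, and the deubiquitinase gene Cyld and Tnip2 were lower. With 41.2% and 44.4% higher, the last 2 lists lay closer to the 32.3% of all genes. Genes that respond to dissociation and stress moved in the same comparison, 9 of 10 higher and none lower. Their summed level was 206 to 364 CPM in controls and 596 to 4942 CPM in tumors, and its part in the rise of Nfkbia and Tnfaip3 was not tested.

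Within myeloid-like cells, gated on complement and microglial genes, 5 of the 10 genes were higher in tumors, none was lower, 3 were not called and 2 were below the low-count filter. Nfkbia rose 9.55-fold, Tnfaip3 6.73-fold and Relb 3.25-fold, and Rela and Nfkbib were 1.67-fold and 1.75-fold higher. Of 8451 tested genes 18.2% were called higher and 21.0% lower. Of the calls 46.5% were higher. With library totals in place of TMM scaling 20.2% were, since the median gene then lay at a log2 difference of -0.46 in place of -0.00. The classes held 80 to 132 cells per control and 241 to 592 per tumor.

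Nfkbia was counted at 30.9, 40.8, 50.0 and 69.3 CPM in myeloid-like cells of controls 1 to 4 and at 186, 345, 280, 467 and 383 CPM in tumors 1 to 5. The group means were 47.7 ± 16.4 CPM (SD, n = 4) and 332 ± 106 CPM (SD, n = 5), with a log2 difference of 3.25 (SE 0.38, edgeR adjusted p = 8.56e-05). No tumor overlapped a control. Tnfaip3 was counted at 3.86, 9.06, 10.7 and 16.2 CPM in controls and at 18.2, 32.4, 101, 62.7 and 41.7 CPM in tumors, a log2 difference of 2.75 (SE 0.56, adjusted p = 0.00191). The lowest tumor was just above the highest control, and limma voom gave adjusted p = 0.120. Relb was counted at 15.4, 11.3, 7.14 and 13.9 CPM in controls and at 24.3, 30.8, 37.0, 23.0 and 27.8 CPM in tumors, a log2 difference of 1.70 (SE 0.30, adjusted p = 0.000807). For Relb as for Nfkbia, the call held in all 23 alternatives. With tumors 2, 4 and 5 only, the log2 differences were 3.67 for Nfkbia, 2.74 for Tnfaip3 and 1.82 for Relb.

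The levels of Rela in myeloid-like cells were 30.9, 31.7, 21.4 and 41.6 CPM in controls and 30.3, 38.7, 51.6, 31.3 and 43.4 CPM in tumors. The ranges overlapped between 30.3 and 41.6 CPM, with tumors 3 and 5 above every control and control 3 below every tumor, and the log2 difference of 0.74 (SE 0.25, adjusted p = 0.0352) rested on the scaling, falling to 0.28 (adjusted p = 0.422) with library totals. Nfkbib had 11.6, 27.2, 28.5 and 30.04 CPM in controls and 27.3, 30.1, 28.5, 33.3 and 40.9 CPM in tumors, with a log2 difference of 0.81 (SE 0.29, adjusted p = 0.0433). Each of these calls held in 11 of 23 alternatives, tumors 2, 4 and 5 alone among them (0.86 for Rela and 1.09 for Nfkbib). Leaving out control 1 or 2, or tumor 2 or 5, ended both calls, leaving out control 3 also ended that of Rela (adjusted p between 0.0576 and 0.0678), and leaving out tumor 4 that of Nfkbib (between 0.0594 and 0.0811).

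The subunits Rel and Nfkb1 were abundant in myeloid-like cells of both groups. Rel was counted at 46.3, 95.1, 74.9 and 87.8 CPM in controls and 62.1, 61.5, 105, 62.2 and 76.1 CPM in tumors, with means of 76.0 ± 21.5 CPM (SD, n = 4) and 73.3 ± 18.5 CPM (SD, n = 5). The log2 difference was 0.36 (adjusted p = 0.262) with TMM scaling and -0.09 with library totals, so its sign was not settled. Nfkb1 had 57.9, 67.9, 107 and 64.7 CPM in controls and 75.8, 65.5, 99.1, 78.3 and 85.1 CPM in tumors, a log2 difference of 0.56 (adjusted p = 0.0607). It was called in 7 of 23 alternatives, which were those without control 3 (adjusted p = 0.0106) or tumor 1 (adjusted p = 0.0439), with tumors 2, 4 and 5 only (adjusted p = 0.0247), relative log expression normalization, limma voom, no filter on low counts and at least 4 gate markers (adjusted p between 0.0306 and 0.0493 for the last 4). With free RNA subtracted the log2 difference was -0.32 for Rel and -0.18 for Nfkb1, neither called. Nfkb1 was left at 133, 151, 218 and 142 CPM in controls and at 98.1, 71.8, 105, 77.5 and 101 CPM in tumors. Every control thus lay above every tumor. Rel was left at 114, 221, 150 and 202 CPM in controls and at 83.5, 71.8, 117, 76.2 and 94.6 CPM in tumors. No direction can be given for either gene in myeloid-like cells.

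Nfkb2 had 27.0, 38.5, 28.5 and 30.04 CPM in myeloid-like cells of controls and 10.6, 21.2, 30.5, 19.6 and 22.9 CPM in tumors, with means of 31.0 ± 5.13 CPM (SD, n = 4) and 21.0 ± 7.15 CPM (SD, n = 5). The log2 difference of -0.09 was not called (adjusted p = 0.839), nor in any of the 22 alternatives that could be fitted. With free RNA subtracted Nfkb2 was left at 0, 5.40, 0 and 0 CPM in controls and at 4.17, 18.1, 33.3, 22.2 and 23.6 CPM in tumors, below the low-count filter. The order of the groups turned there, and no direction can be given for Nfkb2 in myeloid-like cells. Bcl3 had no UMI in the 1413591 UMIs of control myeloid-like cells, which allows up to 2.12 CPM for the group (3 counts). In tumors it was counted at 1.52, 18.2, 8.01, 9.30 and 12.3 CPM, a mean 4.65-fold above that limit, with tumor 1 below it. The limit is taken over all UMIs of the control sums, of which neuron markers put 54.9% to 62.5% down to free RNA. Over the UMIs of cells alone it would be higher. Nfkbie was at 7.72, 4.53, 7.14 and 6.93 CPM in controls and 0, 18.2, 19.5, 14.7 and 14.7 CPM in tumors, so that tumor 1 was below and the other tumors were above the controls. Both genes were below the low-count filter. Without that filter both were called, at adjusted p = 0.000648 for Bcl3 and 0.0347 for Nfkbie (log2 difference 1.80, SE 0.62). Where leaving out a mouse brought Nfkbie past the filter, it was called without tumor 1 (adjusted p = 0.00132) and not called without any 1 control (adjusted p between 0.117 and 0.174).

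Markers of other cells moved with these results. The 10 neuron markers, all with UMIs in both groups, summed to 4168 to 5228 CPM in myeloid-like cells of controls and to 88.1 to 1137 CPM in those of tumors. The 10 myeloid gate markers summed to 13413 to 17480 CPM and 38282 to 46534 CPM. Subtracting free RNA left Nfkbia at 47.5, 64.7, 90.2 and 136 CPM in controls and 242, 393, 307, 572 and 455 CPM in tumors, without overlap. The log2 difference of Nfkbia was then 2.76 and of Relb 1.19, both called, and that of Rela was 0.08 (adjusted p = 0.865). Rela was left at 47.5, 64.7, 37.6 and 87.4 CPM in controls and at 33.4, 40.7, 53.7, 27.3 and 48.3 CPM in tumors. Controls 2 and 4 thus lay above every tumor, and controls 1 and 3 lay within the tumor range. The groups of Relb overlapped, with tumor 4 at 26.0 CPM below control 1 at 28.5 CPM. Tnfaip3 was left at 9.50, 21.6, 22.5 and 32.8 CPM in controls and 25.0, 38.3, 113, 76.9 and 51.4 CPM in tumors. Tumor 1 thus lay below control 4. The dissociation and stress genes were higher for 8 of 10 and lower for none, their sum was 632 to 1434 CPM in controls and 1046 to 12812 CPM in tumors, and their part in the results was not tested.

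Most listed target genes of NF-kB were also higher in myeloid-like cells of tumors. Of 11 tested targets 10 were higher and none lower. The chemokine genes Ccl2, Ccl3 and Ccl4 had the smallest p among them, with log2 differences of 7.08, 6.80 and 7.56. Ccl3 went from a mean of 7.096 CPM in controls to 608 CPM in tumors. Of 7 tested receptors 4 were higher, among them Tlr2 at 3.27 (SE 0.46, adjusted p = 0.000222), which senses bacterial lipoproteins. Nfkbiz, a nuclear IkB-like gene, rose by 2.70 (SE 0.47, adjusted p = 0.000739), and Zc3h12a also rose, while Tax1bp1 and Cyld were lower, 4 calls among 8 tested inhibitors. Of 12 tested IKK kinases, adaptors and upstream enzymes 3 were higher (Myd88, Ikbkb and Birc3) and none lower, 25.0% beside 18.2% of all genes. The median log2 difference was 6.72 for targets, 0.88 for receptors, 0.47 for other inhibitors and 0.25 for the kinase and adaptor list, beside -0.00 for all genes.

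**Figure D2:**
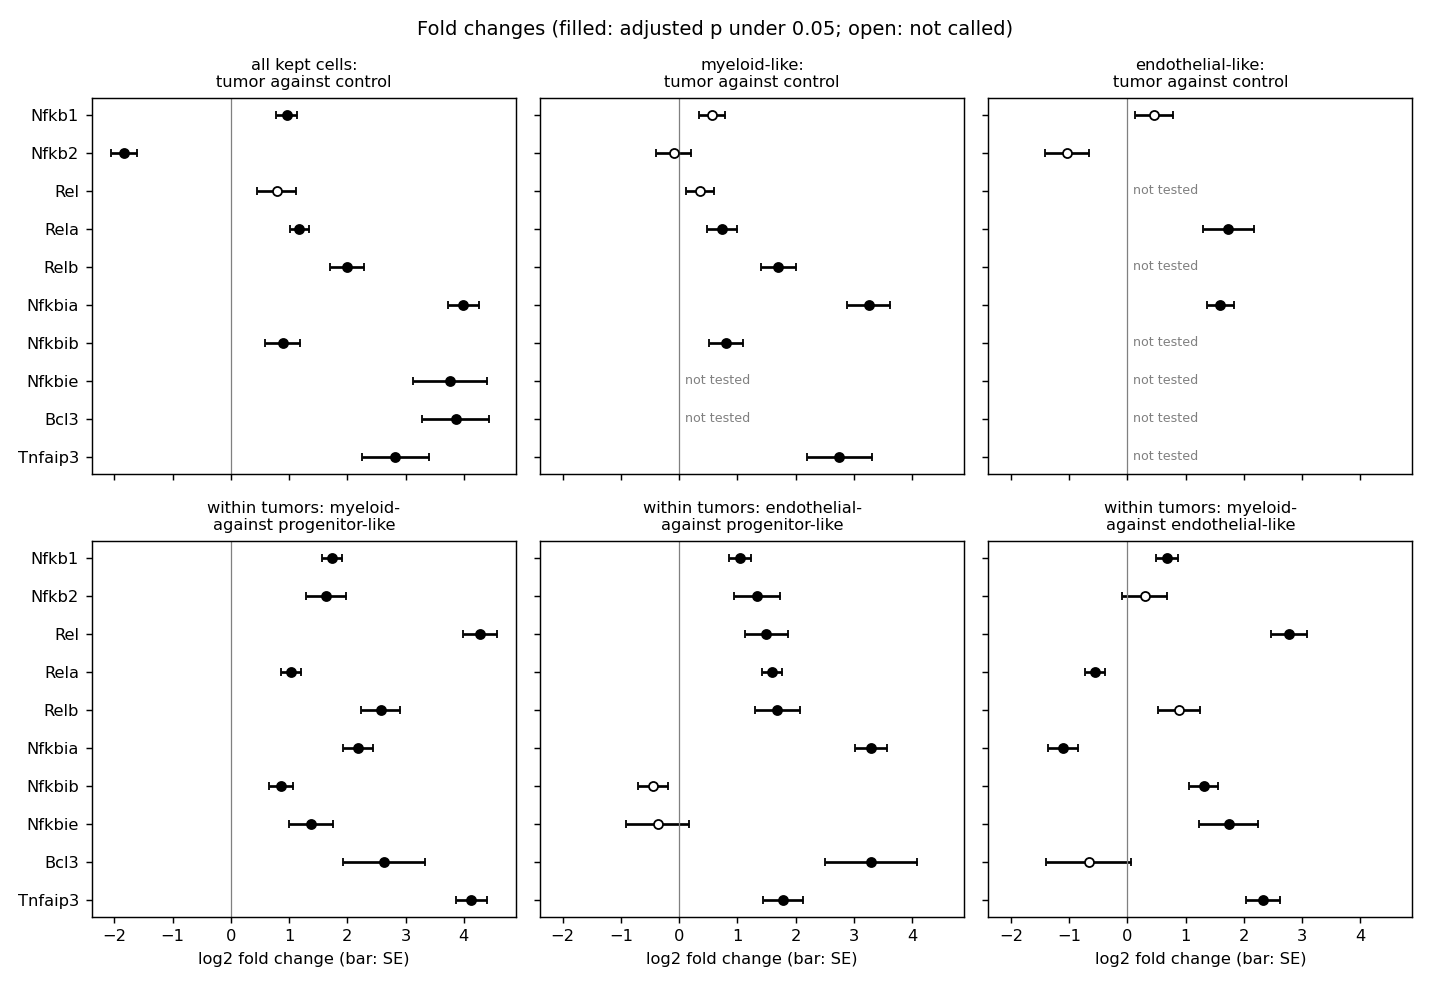
Log2 difference ± SE from the edgeR fit (x axis) of each of the 10 genes (y axis) in 6 comparisons, 1 panel each; filled points have an adjusted p under 0.05, and genes below the low-count filter have no point. Nfkbia lies to the right in every panel but that of myeloid-like against endothelial-like cells, and Nfkb2 lies to the left over all kept cells.

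In endothelial-like cells 4 of the 10 genes had enough counts to be tested, and Nfkbia and Rela were higher in tumors, beside 12.6% of 6240 genes called higher and 13.6% lower. These classes were small, with 21 to 30 cells per control and 86 to 177 per tumor. Nfkbia was counted at 340, 301, 303 and 220 CPM in controls and 708, 1040, 822, 782 and 759 CPM in tumors. Its group means were 291 ± 50.9 CPM (SD, n = 4) and 822 ± 129 CPM (SD, n = 5), a 3.02-fold difference (log2 1.60, SE 0.24, edgeR adjusted p = 0.000719) that was called in all 19 alternatives, at a log2 difference of 1.65 with tumors 2, 4 and 5 only. Endothelial-like cells of controls lay above their myeloid-like cells (30.9 to 69.3 CPM), while barcodes with few UMIs held Nfkbia at 14.3 to 21.8 CPM in controls.

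Rela was seen with 1, 1, 7 and 1 UMIs in endothelial-like cells of controls, or 17.0, 7.35, 48.2 and 8.78 CPM, and at 58.1, 59.4, 75.0, 68.2 and 88.8 CPM in tumors. All tumors were above control 3 and further above the other controls. The log2 difference was 1.73 (SE 0.44, adjusted p = 0.0115), and it was not called by limma voom (adjusted p = 0.0684) or with free RNA subtracted (adjusted p = 0.0857). Without control 3 the log2 difference was 2.88, and with tumors 2, 4 and 5 only Rela was below the low-count filter and was not tested. Nfkb2 was counted at 17.0, 58.8, 41.3 and 52.7 CPM in controls and 21.1, 16.5, 19.3, 22.3 and 26.9 CPM in tumors. Its log2 difference of -1.04 (adjusted p = 0.0591) was not called, and without control 1, the only control in the tumor range, it was -1.21 (adjusted p = 0.0338). It was also called with library totals (adjusted p = 0.0430) and by limma voom (adjusted p = 0.0469), which made 3 calls in 12 alternatives that could be fitted. With free RNA subtracted Nfkb2 was left at 0, 56.7, 20.5 and 28.0 CPM in controls and at 20.4, 12.1, 21.1, 24.2 and 27.6 CPM in tumors. The groups overlapped there. Nfkb1 did not pass the threshold (log2 0.46, adjusted p = 0.326).

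The other 6 genes had at most 3 UMIs in any control and were below the low-count filter. Without that filter none of them was called, with Bcl3 closest at a log2 difference of 2.37 (SE 0.89, adjusted p = 0.0565), Tnfaip3 at 2.62 (adjusted p = 0.119) and Relb at 1.40 (adjusted p = 0.245). Bcl3 was at 18.5, 6.60, 43.5, 8.35 and 21.5 CPM in tumors and at 17.0, 0, 0 and 8.78 CPM in controls, where the counts were 1, 0, 0 and 1. Nfkbie had no UMI in control endothelial-like cells, which allows up to 6.61 CPM over the group, and a mean of 5.30 CPM in tumors, so no difference was detectable at this depth. In the endothelial-like comparison, 1 of 5 tested targets was higher, the adhesion gene Icam1 at a log2 difference of 2.82 (SE 0.55, adjusted p = 0.00271). Of 3 tested receptors Tnfrsf1a and Il1r1 were higher, none of 7 kinases and adaptors was called, and Cyld and Itch were lower among 4 other inhibitors. The dissociation and stress genes were higher for 8 of 8, their sum was 296 to 456 CPM in controls and 713 to 4182 CPM in tumors, and their part was not tested.

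The tumor effect on Nfkbia was larger in myeloid-like than in endothelial-like cells, by a call that was lost in 7 of 18 alternatives. A single fit over both classes with the mouse as a block gave a difference of the log2 effects of 1.54 (SE 0.37, edgeR adjusted p = 0.0242). It was the only one of 8 tested genes to pass, beside 1.45% of 8702 genes called higher and 1.80% lower. In simulated counts this test recovered 4% of 2-fold and 47% of 4-fold changes, so the genes that did not pass may still differ. With library totals 14.1% of the calls were higher, against 44.5% with TMM, and Nfkbia missed the threshold at 1.21 (adjusted p = 0.0503). It missed it as well by limma voom (1.55, adjusted p = 0.0527) and with free RNA subtracted (1.60, adjusted p = 0.121). It also missed it without control 1, 2 or 3 or tumor 5, where the difference was 1.34, 1.39, 1.49 and 1.43. With tumors 2, 4 and 5 only it was 1.80 (adjusted p = 0.000486). For Rela the difference was -1.07 (SE 0.56, adjusted p = 0.369) and for Tnfaip3 0.28 with an SE of 1.96, so that little could be said of the latter. In the lists, none of the genes of targets, receptors, inhibitors or kinases passed, and Ier2 (log2 1.93) did among the 10 dissociation genes.

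Within tumors, every one of the 10 genes was higher in myeloid-like than in neural-progenitor-like cells of the same mice, beside 25.8% of 10922 genes called higher and 28.9% lower. Of these calls 47.2% were higher, and 25.9% were with library totals. Under library totals 9 of the 10 genes remained called, beside 1867 of 10922 genes higher and 5341 lower, and Nfkbib was not (log2 0.42, adjusted p = 0.106). Rel and Tnfaip3 had the largest differences. Rel was counted at 9.60, 5.15, 5.89, 6.14 and 2.58 CPM in neural-progenitor-like cells of tumors 1 to 5, against 62.1 to 105 CPM in their myeloid-like cells, a 19.4-fold difference (log2 4.28, SE 0.29, edgeR adjusted p = 2.49e-08). Tnfaip3 was at 0, 2.99, 4.42, 4.12 and 5.36 CPM against 18.2 to 101 CPM, a 17.5-fold difference (log2 4.13, SE 0.27, adjusted p = 1.98e-08). In none of the 5 tumors did the progenitor level of either gene reach that of the myeloid-like cells. Barcodes with few UMIs held Rel at 7.41, 14.5, 7.73, 14.0 and 3.32 CPM and Tnfaip3 at 1.71, 4.68, 6.54, 14.5 and 3.87 CPM in tumors 1 to 5, above the progenitor level of each gene in 4 of 5 tumors. Over the 10 genes the level in these barcodes was at or above that in neural-progenitor-like cells in 28 of 50 cases. It was so in 5 of 5 tumors for Nfkb2, but in 2 of 5 for Nfkb1 and Nfkbia and in 1 of 5 for Nfkbib and Nfkbie. Progenitor levels at or below these values were thus not separated from free RNA. In tumor 3 the same barcodes were also candidates for cells, so they may hold more than free RNA there. No subtraction was made within tumors, and the folds against progenitor levels are those of the counts as deposited.

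Relb, Nfkbia and the remaining subunits had smaller differences. Relb was counted at 1.92, 10.9, 2.95, 4.45 and 9.38 CPM in neural-progenitor-like cells and was 5.95-fold higher in myeloid-like cells (log2 2.57, SE 0.33, adjusted p = 1.88e-05). Nfkbia was at 49.9, 137, 53.0, 98.7 and 171 CPM, a mean of 102 ± 52.8 CPM (SD, n = 5), and was 4.55-fold higher in myeloid-like cells (log2 2.19, SE 0.26, adjusted p = 1.01e-05). Tumors 1 and 3, the ones with few fusion UMIs, had the lowest progenitor levels of Nfkbia. Nfkb1, at 19.2, 39.0, 33.1, 36.9 and 29.2 CPM, and Nfkb2, at 1.92, 18.9, 3.68, 9.88 and 8.56 CPM, were 3.33-fold and 3.09-fold higher in myeloid-like cells. Rela was at 25.0, 25.3, 34.6, 25.0 and 21.1 CPM, with little spread between the tumors, and its difference was 2.04-fold (log2 1.03, SE 0.17, adjusted p = 0.000148).

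The remaining genes were low or close between the classes. Nfkbib was at 17.3, 28.3, 16.2, 31.1 and 25.5 CPM in neural-progenitor-like cells and differed by 0.86 on the log2 scale (SE 0.20, adjusted p = 0.00278). Nfkbie was at 5.76, 14.8, 5.89, 4.38 and 8.87 CPM, a log2 difference of 1.37 (SE 0.38, adjusted p = 0.00708) that was not called without tumor 4 (1.04, adjusted p = 0.0658). Bcl3 was at 0, 2.75, 0.737, 5.31 and 0.309 CPM, a log2 difference of 2.63 (SE 0.70, adjusted p = 0.00577). It ran from 2.11 to 3.56 with 1 tumor left out. With tumors 2, 4 and 5 only, all 10 genes were called, beside 2601 of 12212 genes called higher and 3086 lower. The log2 differences were then 4.29 for Rel, 3.89 for Tnfaip3, 2.23 for Relb, 2.01 for Nfkbia, 1.24 for Nfkb2 and 1.08 for Rela. Fusion-positive cells were those with a fusion UMI outside the immune, vascular, oligodendrocyte-like, choroid-like, neuron-like and mixed classes. Only these 3 tumors had enough of them for a sum, while myeloid-like and endothelial-like sums of all 5 tumors stayed in the fit. With progenitor cells replaced by fusion-positive cells, 8 of 10 were called and Nfkbib and Bcl3 were not (adjusted p = 0.0653 and 0.0512). Of 11493 tested genes 2532 were called higher and 2744 lower there. Fusion-positive cells of tumors 2, 4 and 5 held Nfkbia at 176, 105 and 274 CPM and Rela at 20.4, 28.6 and 15.5 CPM.

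Against the same neural-progenitor-like cells, endothelial-like cells of tumors were higher in 8 of the 10 genes, beside 22.6% of 10922 genes called higher and 24.7% lower. Nfkbia differed 9.81-fold (log2 3.29, SE 0.27, adjusted p = 3.56e-07) and Rela 3.01-fold (log2 1.59, SE 0.17, adjusted p = 5.76e-06). Bcl3 differed by 3.30 on the log2 scale (SE 0.79, adjusted p = 0.00334), Tnfaip3 by 1.79, Relb by 1.69, Rel by 1.50, Nfkb2 by 1.33 and Nfkb1 by 1.05, all called. The size for Bcl3 was loose, at 2.58 to 4.56 with 1 tumor left out. Nfkbib (-0.45, adjusted p = 0.163) and Nfkbie (-0.37, adjusted p = 0.602) did not pass. With tumors 2, 4 and 5 only, Nfkbia differed by 2.80 and Rela by 1.69 on the log2 scale, Nfkb2 (adjusted p = 0.0638) and Bcl3 (adjusted p = 0.0764) were not called, and Nfkb2 was also lost without tumor 5 (adjusted p = 0.0603). With progenitor cells replaced by fusion-positive cells, Nfkb2 was at 0.65 and not called (adjusted p = 0.175).

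Myeloid-like and endothelial-like cells of the same tumors differed in both directions. Of the 10 genes 5 were higher in myeloid-like cells, 2 were higher in endothelial-like cells and 3 were not called, beside 19.5% and 17.6% of 10922 genes, and 52.6% of calls were higher in myeloid-like cells, 33.8% with library totals. Rel was 6.87-fold higher in myeloid-like cells (log2 2.78, SE 0.31, adjusted p = 6.00e-06), where endothelial-like cells held 13.2, 18.2, 8.47, 15.3 and 10.8 CPM. Tnfaip3 was 5.05-fold higher (log2 2.34, SE 0.29, adjusted p = 1.83e-05), and Nfkbie, Nfkbib and Nfkb1 were higher by 1.74, 1.31 and 0.68 on the log2 scale. Nfkb1 and Nfkbie were not called without tumor 3 (adjusted p = 0.0613 and 0.0804), and Nfkb1 was not called with library totals (0.41, adjusted p = 0.103). Nfkbia (log2 -1.11, SE 0.25, adjusted p = 0.00299) and Rela (-0.56, SE 0.17, adjusted p = 0.0196) were higher in endothelial-like cells. Rela missed the threshold without tumor 1 or 4 (adjusted p = 0.0624 and 0.0716) and with tumors 2, 4 and 5 only (-0.61, adjusted p = 0.0697), and without a filter on low counts (-0.52, adjusted p = 0.110). With those 3 tumors Nfkbia was at -0.79 and Rel at 2.49. Relb (0.89, adjusted p = 0.0683, but 0.0361 without a filter), Nfkb2 (0.29, adjusted p = 0.591) and Bcl3 (-0.67, adjusted p = 0.514) did not differ past the threshold.

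The lists of other pathway genes differed between the classes of tumors to unequal degrees, and their counts stand beside 25.8%, 22.6% and 19.5% of all genes called higher in the 3 comparisons. In myeloid-like against neural-progenitor-like cells 8 of 9 receptors, 10 of 14 targets, 7 of 8 other inhibitors and 10 of 17 kinases and adaptors were higher, and none was lower. The endosomal receptor gene Tlr7 differed by 7.40 on the log2 scale (SE 0.40, adjusted p = 2.95e-09) and Bcl2a1b, a survival gene with close paralogs whose reads may be split, by 7.40 (SE 0.27). In endothelial-like against neural-progenitor-like cells 6 of 9 receptors were higher, the IL-1 receptor gene Il1r1 by 4.96 and Cd40 by 4.30 on the log2 scale, and Tlr2 was lower. In that comparison 6 of 14 targets, 3 of 8 inhibitors and 5 of 17 kinases and adaptors (29.4%, near the share of all genes) were higher, and Otulin was lower. In myeloid-like against endothelial-like cells 5 of 9 receptors, 9 of 14 targets, 6 of 8 inhibitors and 4 of 17 kinases and adaptors (23.5%, again near that share) were higher, while Il1r1 (log2 -4.08) and Tax1bp1 were lower. Of the 10 dissociation genes 5 were higher in each of these comparisons, with Egr1 lower in endothelial-like than in neural-progenitor-like cells.

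**Figure D3:**
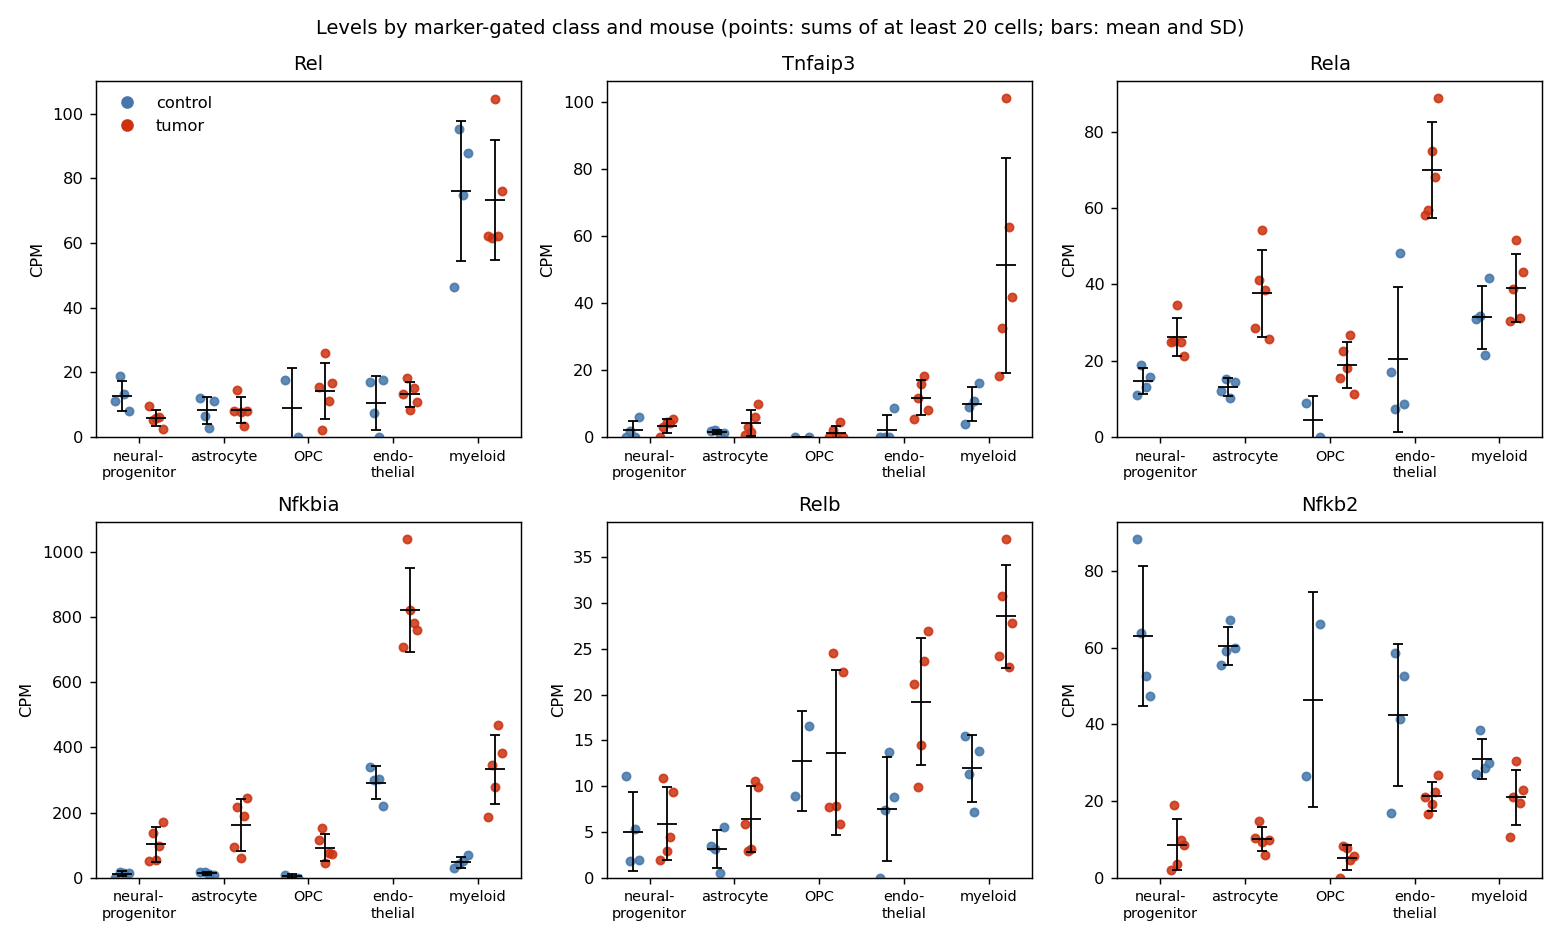
CPM of Rel, Tnfaip3, Rela, Nfkbia, Relb and Nfkb2 (y axis, 1 panel per gene) by cell class (x axis); each point is 1 mouse, controls and tumors in separate colors, for sums of at least 20 cells. Rel and Tnfaip3 are highest in myeloid-like cells, and Nfkbia and Rela in endothelial-like cells of tumors. Free RNA is not subtracted in these points, and no direction is given for Rel and Nfkb2 in myeloid-like cells. Control neural-progenitor-like points are not compared, and OPC-like points of controls come from 2 mice.

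The 5 classes present in all tumors were ordered by the mean level of each gene, described with ranges and no test. Myeloid-like cells came first for Nfkb1, Rel, Relb, Nfkbie and Tnfaip3, endothelial-like cells for Nfkb2, Rela, Nfkbia and Bcl3, and OPC-like cells for Nfkbib. Neighbors in these orders overlapped with 5 exceptions. Rel in myeloid-like cells (61.5 to 105 CPM) lay clear of OPC-like cells (2.05 to 26.0 CPM), and Tnfaip3 in myeloid-like cells (18.2 to 101 CPM) lay barely clear of endothelial-like cells (5.28 to 18.1 CPM). Nfkbia in endothelial-like cells (708 to 1040 CPM) lay above myeloid-like cells (186 to 467 CPM). Rela in endothelial-like cells (58.1 to 88.8 CPM) lay above myeloid-like cells (30.3 to 51.6 CPM), and Nfkb1 in endothelial-like cells (51.1 to 68.7 CPM) above astrocyte-like cells (30.3 to 48.1 CPM). Astrocyte-like cells of tumors held Rela at 25.7 to 54.3 CPM against 10.2 to 15.3 CPM in those of controls, and Nfkbia at 60.5 to 243 CPM against 8.57 to 18.2 CPM. The ranges of both genes did not overlap there, although no test was planned in that class. Barcodes with few UMIs held Nfkbia at 14.3 to 21.8 CPM in controls and 39.9 to 123 CPM in tumors. They held Rela at 7.25 to 15.5 CPM in controls and 21.1 to 42.4 CPM in tumors. The astrocyte-like gate passed for 4 of 6 held-out markers in each group, and the part of free RNA in these ranges was not tested.

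The share of each gene's UMIs that lay in myeloid-like cells was compared between the groups. It was higher in tumors for 9 of 10 genes, each with a two-sided exact permutation p of 0.0159, the smallest that 5 against 4 mice allow. A higher share at an exact permutation p under 0.05 was found for 54.2% of 17271 genes with UMIs in every mouse (0.104% were lower). It was also found for the UMIs of all genes together, of which myeloid-like cells held 5.44% to 29.1% in tumors and 1.78% to 2.10% in controls (exact permutation p = 0.0159). The count of 9 is therefore not particular to these genes, and the size of the shares is given as a description. For Rel the share was 56.4% ± 18.6 in tumors (SD, n = 5, range 32.4% to 81.6%) and 12.8% ± 4.35 in controls (SD, n = 4). For Tnfaip3 it was 55.2% ± 19.6 (36.7% to 85.6%) and 9.16% ± 2.81. With tumors 2, 4 and 5 only, the means were 51.5% for Rel and 46.1% for Tnfaip3, beside 10.3% of all UMIs. The tumor means were 35.1% for Relb, 25.3% for Nfkb1, 25.0% for Bcl3, 21.8% for Nfkbia, 20.9% for Nfkb2, 20.0% for Nfkbib and 17.5% for Rela. For Nfkbie the share was 23.1% ± 25.5 in tumors and 18.6% ± 5.11 in controls (exact permutation p = 0.968), with tumor 1 at 0%. All 9 held with each mouse left out in turn, and with 5000 barcodes per library the difference for Rela missed the threshold (exact permutation p = 0.0794), as that for Bcl3 did with a mitochondrial limit of 10% (also 0.0794).

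Myeloid-like cells themselves made up 13.2% of tumor cells (6.61% to 22.1%) and 2.19% of control cells (2.01% to 2.32%), and 14.3% and 1.98% of the UMIs. The share of a gene's UMIs moves with the number of these cells, and the Rela share of 17.5% in tumors stands beside 14.3% of all UMIs. Endothelial-like cells, 5.06% of tumor cells, held 22.0% of the Nfkbia UMIs and 28.7% of the Bcl3 UMIs of tumors on average. Neural-progenitor-like cells made up 5.58% to 65.8% of the cells of a tumor, and they held 42.0% of the UMIs of all genes on average. Their mean share was 42.9% for Nfkbie and 40.7% for Nfkbib, and for the other 8 genes it ran from 36.4% for Rela down to 16.2% for Rel. In controls, barcodes in the neuron-like gate held on average between 43.6% (Nfkbie) and 74.4% (Nfkb2) of the UMIs of a gene.

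**Figure D4:**
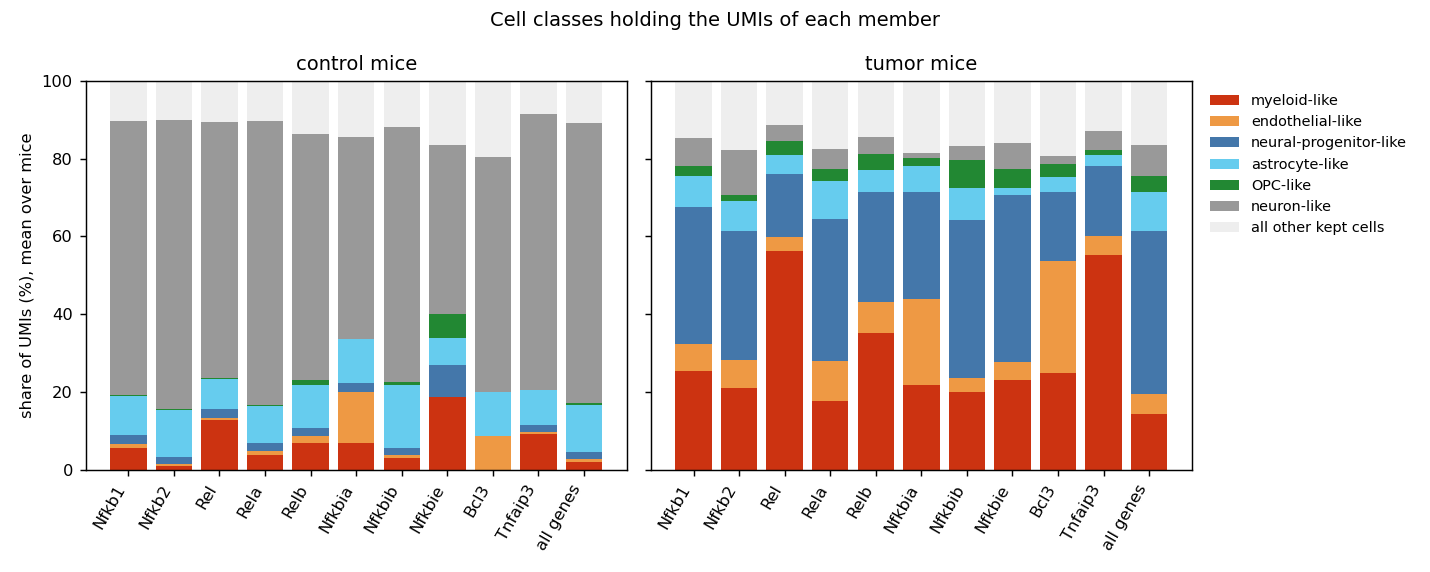
Mean share of the UMIs of each gene (y axis, percent) that lay in each cell class, stacked, for the 4 controls and the 5 tumors, with the share of the UMIs of all genes as a further bar. The myeloid-like part reaches 56.4% for Rel and 55.2% for Tnfaip3 in tumors, against 14.3% for all genes.

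Genes with the most similar pattern over the 64 sums of class and mouse were found by Pearson correlation of log2(CPM + 10), among 13528 genes, as a description without a test, since sums of a mouse share a library and depth. For Rel they were Cd33 (r = 0.89), Selplg and Trem2 (both r = 0.88), and for Tnfaip3 Gmfg, Slc7a7 and Il4ra (all r = 0.85). For Nfkb1 they were Cyba (r = 0.83), Lyn and Rnase4. Nfkbia was closest to Adipor1 (r = 0.88), Myl12a and Gnai2, and Rela was also closest to Adipor1 (r = 0.76), then Glmp and Rnh1. Relb was closest to Ssr4 (r = 0.75), Tmed3 and Commd8, Bcl3 to Ier3 (r = 0.77), Dap and Plaur, and Nfkbib to Itga9 (r = 0.65), Arrdc4 and Lamtor4. Nfkb2 was closest to Ube4bos1 (r = 0.82), Zmat4 and Scn4b, and Nfkbie had too few counts for the ranking.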

How the data were processed

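Cell suspensions of control brain and tumor were captured with a 10x Genomics 5′ kit. The deposited values are raw UMI counts per gene and barcode, made by the authors with Cell Ranger (6.1.2 in the matrix headers, version 7 in the submitters' processing notes, which also name Scanpy 1.8.2 and mm10) without normalization. No column of per-sample values went unused. In control 4 the matrix has 80887 columns for 80865 listed barcodes and was read by column.

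From these counts, the 10000 barcodes with most UMIs per library were kept if they had 200 to 6000 genes. A Gaussian mixture of 2 components on mitochondrial share and gene number (scikit-learn 1.9.0) removed the component of higher share. Scrublet (Scanpy 1.11.5) removed doublets at a share that grew with the number of kept barcodes. Each cell was gated on lists of 10 markers, needing at least 3 with a UMI and a summed share of 0.25 of that in core cells. Cells of mixed families were left out. Sums of at least 20 cells were filtered for low counts, scaled by TMM and fitted in edgeR 4.0.16 under R 4.3.3 (quasi-likelihood), and p-values were adjusted by Benjamini-Hochberg over all tested genes at a threshold of 0.05. The mouse was a block within tumors. Shares were compared by exact permutation (scipy 1.17.1). The tests were checked on simulated counts with equal spread for all genes. Of 2-fold changes 75% were recovered over all kept cells, 32% in myeloid-like cells, 27% in endothelial-like cells and 4% for the difference between them. Of 4-fold changes 98%, 83%, 77% and 47% were recovered. Alternatives were DESeq2 1.42.0, limma 3.58.1 with voom, other normalizations, filters and gates, the replicate number as a block, and each mouse left out. Library totals without scaling, subtraction of free RNA and tumors 2, 4 and 5 alone were 3 alternatives chosen after seeing the data. Free RNA was read from the 3000 barcodes of lowest UMI total per library, which in tumor 3 were also candidates for cells.

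The named genes are the 10 members, up to 3 genes with the smallest p in each direction per list and comparison, and the 3 most correlated genes of each member. Members, lists and markers were chosen with earlier results of these data known. P-values measure the spread between samples, which may in part be technical. Floors of 3 counts cover counting error only. Reads of overlapping or antisense genes may be shared, and coordinates are GRCm38.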

Additional observations from a re-analysis of the deposited data

Results flagged for a closer look

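Among 77 groups of 4 or 5 values, 5 held a value whose gap to its nearest neighbor was above Dixon's 95% limit, and chance gives about 1 in 20 such groups. Rel over all kept cells was at 37.3 CPM in tumor 3, with the next tumor at 17.3 CPM. Tnfaip3 over all kept cells was at 34.4 CPM in tumor 3, with the next at 9.50 CPM. Myeloid-like cells made up 22.1% of the cells of tumor 3, the highest share of the 5 tumors, and the part of that share in both values was not tested. Nfkbib in myeloid-like cells was at 11.6 CPM in control 1 (3 UMIs), below the next control at 27.2 CPM. Nfkbie in myeloid-like cells was at 0 CPM in tumor 1, with the next tumor at 14.7 CPM. Tnfaip3 in endothelial-like cells was at 8.78 CPM in control 4, which is 1 UMI, and at 0 in the other controls. The tumor effect on Nfkbia differed between myeloid-like and endothelial-like cells by 1.54 on the log2 scale in a test of the interaction, a call lost in 7 of 18 alternatives, where adjusted p reached 0.137.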

How the results depend on the processing

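Of 1272 recomputed values of single genes 1170 kept their direction and side of the threshold, 26 that were not called in either changed sign, 61 lost and 15 gained a call, and none that was called turned its sign. Of 149 recomputed counts 130 stayed within 1.5 times. In myeloid-like cells 5 genes were called, but 3 with library totals, DESeq2, limma voom, 5000 barcodes or the replicate number as a block, 8 without a filter on low counts, and 3 to 7 with 1 mouse left out. In endothelial-like cells 2 were called, and 1 with free RNA subtracted or with tumors 2, 4 and 5 only, where 1 gene could be tested. For the difference between these classes 1 was called, and 0 with library totals, limma voom or free RNA subtracted, and 0 to 1 with 1 mouse left out. Over the whole table, 3314 genes were called in myeloid-like cells and 1864 with free RNA subtracted. Library totals gave 3749, DESeq2 3176, limma voom 2950, 5000 barcodes 2876 and no filter on low counts 4409. With 1 mouse left out 2783 to 3664 were called. In endothelial-like cells 1636 were called, 1079 with free RNA subtracted and 2569 without a filter. For the difference 283 were called, 444 with limma voom, 494 without a filter, 593 with tumors 2, 4 and 5 only, 182 with free RNA subtracted, and 118 to 401 with 1 mouse left out. The cause of these shifts was not tested. Deviations of same-numbered mice from their group means correlated at -0.056 to 0.126. Mice of different numbers were not compared, so these values cannot decide whether the replicate numbers pair the samples. With the replicate block 8 genes were called over all kept cells, 3 in myeloid-like and 2 in endothelial-like cells, beside 8848, 3094 and 1603 genes of the whole table. Without the mouse as a replicate block, 9, 8 and 5 genes were called in the 3 comparisons within tumors, beside 4730, 4181 and 3245 of the 10922 tested genes. For endothelial-like cells and the difference, 50 cells per sum, a gate share of 0.5, a mitochondrial limit of 10% and 5000 barcodes left too few sums for a fit. Control endothelial-like cells numbered at most 30 per mouse, and 6 of the 10 genes were tested there only without a filter on low counts, where none of the 6 was called.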
